A study of Mus musculus with 6 samples.

Results

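The genes described here make, break down, bind and sense retinoic acid: 3 synthesis enzymes (Aldh1a1, Aldh1a2 and Aldh1a3), 3 breakdown enzymes (Cyp26a1, Cyp26b1 and Cyp26c1), 3 nuclear receptors (Rara, Rarb and Rarg) and the binding protein Crabp1. They were chosen by gene symbol, with earlier results of these data known. Each of the 10 symbols had 1 row among the 56359 rows of the deposited table. RNA sequencing of C57BL/6 mouse embryos at embryonic day 12 gave 3 samples with the genotype Tmem216-/- and 3 wild-type (WT) samples. The labels do not describe how the Tmem216 allele was made. Tmem216 encodes a protein of the transition zone, the gate at the base of the primary cilium. The source is labelled as embryo, with no part of the body named and no statement that each sample is a separate embryo. The p values therefore set the group difference against the scatter of these samples only, and part of that scatter may be technical. Levels are TPM (transcripts scaled to a fixed total per sample), which correct for gene length and can be compared between genes.

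Retinoic acid is a small signalling molecule made from vitamin A. Retinol is first oxidised to retinaldehyde, and the Aldh1a enzymes then oxidise retinaldehyde irreversibly to retinoic acid. Cyp26 enzymes hydroxylate retinoic acid and so clear it, and Crabp proteins carry it in the cytoplasm. In the nucleus it binds RAR proteins, which sit on DNA as partners of RXR proteins at paired half-sites called retinoic acid response elements. In the embryo the enzymes are made in separate places, so that the signal is high in the trunk and low in the tail bud, the distal limb and parts of the hindbrain. Rarb and Cyp26a1 are themselves classic targets of the signal, and Cyp26a1 acts as a feedback brake.

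The promoters of Rarb and Cyp26a1 are shown because they carry the paired half-sites through which the receptors act on the pathway's own genes. RefSeq windows (build GRCm38.p6, the same chromosomes as mm10) from 250 bases before to 50 bases after a start site were at hand for 9 of the 10 genes, 14 windows in all. They were searched on both strands for direct repeats of a half-site with 5 or 2 bases between them. The half-site AGGTCA was accepted along with its variant GGGTCA, the further variant AGTTCA and finally the variant GGTTCA. Capitals mark the half-sites of a repeat found, and each window reads 5′ to 3′ on the strand of its gene, Rarb from chr14:16575427-16575726 (minus strand) and Cyp26a1 from chr19:37697558-37697857 (plus strand).
Rarb: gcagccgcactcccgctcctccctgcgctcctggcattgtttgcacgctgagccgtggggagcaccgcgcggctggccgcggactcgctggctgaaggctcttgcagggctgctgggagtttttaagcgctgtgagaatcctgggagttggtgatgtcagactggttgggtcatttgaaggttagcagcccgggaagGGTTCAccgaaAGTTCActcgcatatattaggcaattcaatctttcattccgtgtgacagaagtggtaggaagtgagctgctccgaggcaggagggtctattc
Cyp26a1: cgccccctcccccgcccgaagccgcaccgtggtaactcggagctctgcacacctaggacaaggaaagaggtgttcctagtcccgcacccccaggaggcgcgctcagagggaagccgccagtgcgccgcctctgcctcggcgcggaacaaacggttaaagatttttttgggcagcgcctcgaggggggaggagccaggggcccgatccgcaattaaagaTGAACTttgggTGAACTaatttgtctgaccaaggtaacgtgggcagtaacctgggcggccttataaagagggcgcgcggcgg

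The Rarb repeat, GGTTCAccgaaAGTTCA, begins 53 bases before the start site and reads on the strand of the gene. The Cyp26a1 repeat, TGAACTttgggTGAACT, begins 32 bases before the start and is a repeat of AGTTCA read from the other strand. Both have 5 bases between the half-sites, a spacing that is found in 32 of 32851 RefSeq promoter windows (0.0974%). The spacing of 2 bases is found in 88 windows (0.268%) and in none of the 14 windows of these genes. In contrast, a single half-site on either strand is found in 43.7% of all windows. The other 12 windows of the retinoic acid genes hold no such repeat, which says only that these letters are not in those windows.

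Tmem216 was 2.25, 0.51 and 1.39 TPM in Tmem216-/- samples (replicates 1, 2 and 3, the order used throughout) and 31.0, 30.7 and 17.4 TPM in WT samples, so the labels and the targeted gene match. In all, 16411 genes reached 1 TPM in 3 or more samples and were tested by limma on log2(TPM + 1), and 17 of them (0.104%) changed at an adjusted p under 0.05. TPM keeps no depth, so how many reads a value rests on is unknown. Libraries of the same group differed in tissue markers. The summed level of 6 liver genes was 859, 91.0 and 125 TPM in Tmem216-/- samples and 1681, 2081 and 183 TPM in WT samples. The summed level of 5 neuron genes was 1190 to 1384 TPM in Tmem216-/- samples and 1309, 903 and 1817 TPM in WT samples. Heart muscle genes differed between the groups. All 7 on the list were higher in every Tmem216-/- sample. This list and all other gene lists used here were chosen with earlier results of these data known. Groups did not overlap for 9.57% of all tested genes. Of the 7 heart genes, 6 changed at an adjusted p under 0.05 in limma and so are among the 17. Their sums were 676, 1747 and 1056 TPM in Tmem216-/- samples against 32.5 to 45.8 TPM in WT samples for all 7. Y-linked genes were at or near 0 in Tmem216-/- replicates 1 and 3 and in WT replicate 3, so both groups held both sexes.

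None of the retinoic acid genes changed by the test. Of the 10, 9 passed the filter on low values, and 0 of the 9 had an adjusted p under 0.05 in limma, against 0.104% of all tested genes. At an unadjusted p under 0.05 there was 1 of the 9, Aldh1a1, against 4.46% of all tested genes. The groups did not overlap for 1 of the 9, again Aldh1a1, against 9.57% of all tested genes, so these counts are near the background. By the sign of the log2 fold change 4 of the 9 were higher and 5 lower in Tmem216-/- samples, with a median of -0.17 against -0.01 over all tested genes. The test does not show that levels were equal. For 5 of the 9 (Aldh1a2, Rara, Rarb, Rarg and Crabp1) the 95% interval of the log2 fold change lay inside a 2-fold difference in either direction on the log2(TPM + 1) scale, and for the other 4 it reached 2-fold or beyond.

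**Figure D1:**
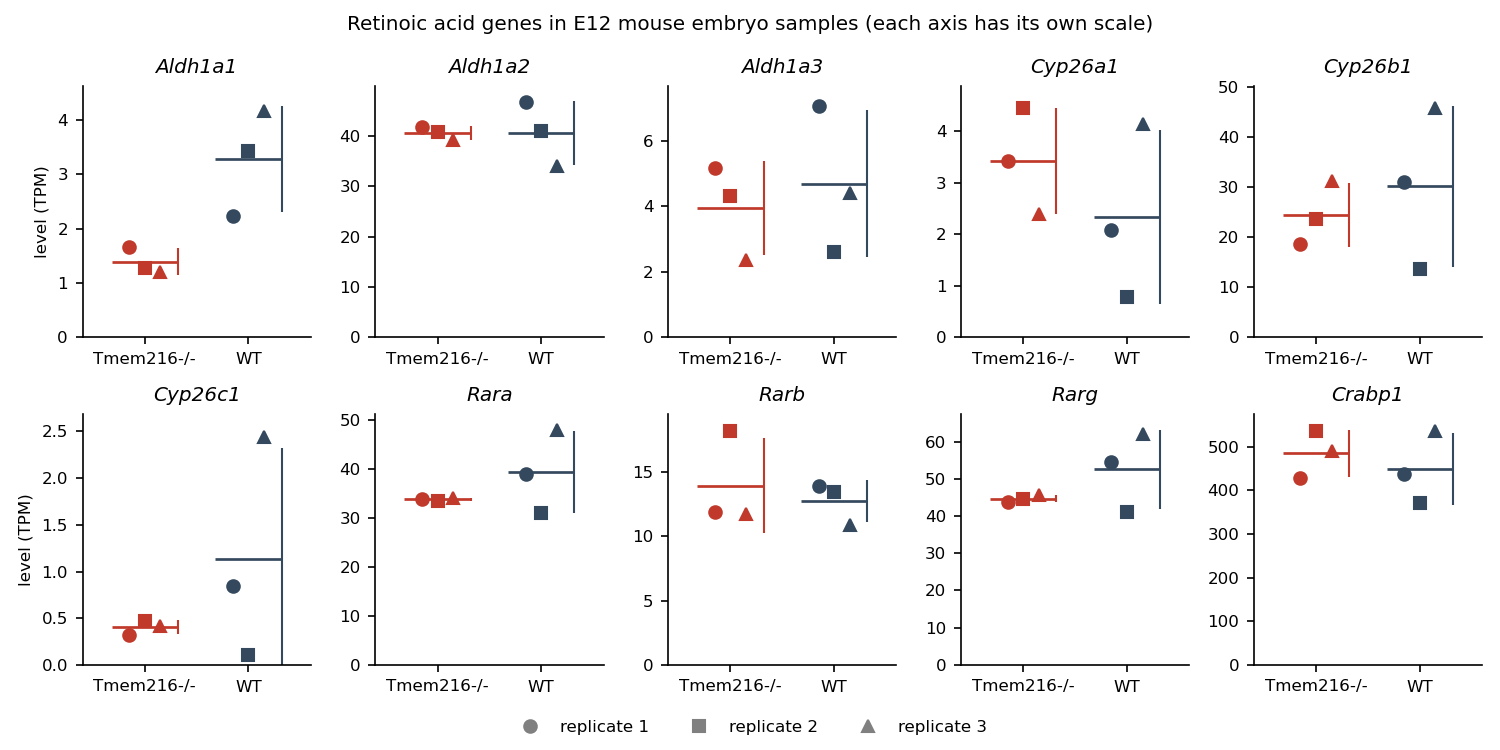
Level in TPM of each retinoic acid gene in each sample, Tmem216-/- (red, left) and WT (dark, right), with marker shapes for replicates 1 to 3, a horizontal line at the mean and a vertical line of 1 SD to each side (not drawn below 0). Aldh1a1 is the gene whose groups do not overlap, at 1.21 to 1.67 TPM in Tmem216-/- samples and 2.24 to 4.17 TPM in WT samples.

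Aldh1a2 was by far the most abundant synthesis enzyme, and its level was nearly the same in both genotypes. Aldh1a2 (ENSMUSG00000013584, chromosome 9, 71215789 to 71296243 in mm10, plus strand) makes most retinoic acid of the trunk mesoderm, and mouse embryos that lack it die at mid-gestation. It was 41.8, 40.8 and 39.1 TPM in Tmem216-/- samples and 46.7, 41.1 and 34.1 TPM in WT samples. The Tmem216-/- values lay within the WT range. Means were 40.6 ± 1.36 TPM in Tmem216-/- samples and 40.6 ± 6.30 TPM in WT samples (SD, n = 3 each), and the log2 fold change was 0.01 (SE 0.13, 95% interval -0.30 to 0.32, limma adjusted p = 0.998). Aldh1a2 made up 85.9%, 87.9% and 91.7% of the summed Aldh1a level in Tmem216-/- samples and 83.4%, 87.2% and 79.9% in WT samples. Mesothelium and epicardium also make Aldh1a2, and the summed level of 6 of their marker genes was 36.8 to 46.3 TPM in Tmem216-/- samples and 15.3 to 52.4 TPM in WT samples. All 6 markers were above 0 in each sample, and 2 of the 6 were higher in every Tmem216-/- sample (9.57% of all tested genes had groups that did not overlap). All 5 tested had a positive log2 fold change, with a median of 0.44, and 0 of the 5 passed limma (0.104% of all tested genes). Spinal motor neurons make it too, and 7 of their markers summed to 36.9 to 51.8 TPM in Tmem216-/- samples and 38.0 to 56.7 TPM in WT samples. None of the 7 was at 0, and 2 were lower in every Tmem216-/- sample (9.57% of all tested genes had groups that did not overlap). All 6 tested had a negative log2 fold change, with a median of -0.51, and 0 of the 6 passed limma (0.104% of all tested genes). The part of either tissue in the Aldh1a2 level was not tested. In bulk RNA, fewer cells of a type and less RNA per cell cannot be told apart.

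Aldh1a1 was lower in each Tmem216-/- sample than in any WT sample, but it did not pass the test. Aldh1a1 (ENSMUSG00000053279, chromosome 19, 20492715 to 20643465, plus strand) makes retinoic acid in the dorsal retina and is also found in liver and in midbrain dopamine neurons. Tmem216 lies on the same chromosome, 9.94 megabases from Aldh1a1 and 27.1 megabases from Cyp26c1. Whether closeness to the targeted gene bears on these levels was not tested. Aldh1a1 was 1.67, 1.28 and 1.21 TPM in Tmem216-/- samples and 2.24, 3.43 and 4.17 TPM in WT samples. Means were 1.39 ± 0.25 TPM in Tmem216-/- samples and 3.28 ± 0.97 TPM in WT samples, which is 2.37-fold lower in Tmem216-/- samples. On the log2(TPM + 1) scale the fold change was -0.82 (SE 0.22, 95% interval -1.36 to -0.29), with an unadjusted p of 0.00874 and an adjusted p of 0.746 in limma. An exact permutation test, two-sided, gave p = 0.1, the lowest p possible with 3 against 3 samples. At so low a level the size depends on the pseudocount, with a log2 fold change of -1.15 at a pseudocount of 0.1 and -0.37 at 5.

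Markers of some tissues that can hold Aldh1a1 are given beside it. The sum of 8 eye genes was 28.3, 27.8 and 31.1 TPM in Tmem216-/- samples and 15.9, 20.8 and 55.1 TPM in WT samples. Of the 8, 2 were higher and 1 lower in every Tmem216-/- sample (9.57% of all tested genes had groups that did not overlap), and only 4 passed the filter. One of the higher genes was Tbx5, a gene of the dorsal retina that is also on the limb list used below, at 12.7, 15.1 and 18.2 TPM in Tmem216-/- samples and 2.33, 11.9 and 7.23 TPM in WT samples. Without it the eye sum was 15.6, 12.7 and 12.9 TPM in Tmem216-/- samples and 13.6, 8.85 and 47.9 TPM in WT samples. The heart sums given above were also higher in every Tmem216-/- sample, and which tissue the Tbx5 level comes from was not tested. The eye gene that was lower in every Tmem216-/- sample was the lens gene Cryaa, which did not pass the filter. It was at 0, 0.05 and 0.05 TPM in Tmem216-/- samples and 2.23, 0.10 and 27.5 TPM in WT samples. The groups of the liver sum given above overlapped. WT replicate 3 had the lowest liver sum of the WT samples, the highest eye sum and the highest Aldh1a1. Among Tmem216-/- samples, replicate 1 had both the highest liver sum and the highest Aldh1a1. No list of midbrain dopamine neuron genes was used. The part of these tissues in the Aldh1a1 level was not tested. Aldh1a7, a mouse relative of Aldh1a1 that lies beside it on chromosome 19 and is close enough in sequence that the counting may split reads between them, was 1.55, 1.82 and 1.76 TPM in Tmem216-/- samples and 3.25, 1.64 and 1.76 TPM in WT samples. Its groups overlapped, with a log2 fold change of -0.21, and the split of reads makes both values less certain.

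Aldh1a3 was low and variable in both genotypes. Aldh1a3 (ENSMUSG00000015134, chromosome 7, 66390890 to 66427517, minus strand) makes retinoic acid in the ventral retina, the nasal region and the lateral forebrain. It was 5.16, 4.32 and 2.35 TPM in Tmem216-/- samples and 7.08, 2.61 and 4.40 TPM in WT samples. The groups overlapped, and the highest sample of each genotype was replicate 1. The log2 fold change was -0.17 (SE 0.36, 95% interval -1.03 to 0.68, limma adjusted p = 0.983). Of 6 forebrain markers, 5 were lower in every Tmem216-/- sample (9.57% of all tested genes had groups that did not overlap). The forebrain list, like the others, was chosen with earlier results of these data known. In limma 0 of the 6 passed, with a lowest adjusted p of 0.203. None was at 0, and their sum was 77.25 to 104.6 TPM in Tmem216-/- samples and 130.5 to 143.7 TPM in WT samples. The part of forebrain tissue in the Aldh1a3 level was not tested.

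Cyp26b1 was the main breakdown enzyme, and it varied more among WT samples than between genotypes. Cyp26b1 (ENSMUSG00000063415, chromosome 6, 84571414 to 84593908, minus strand) protects the distal limb, the hindbrain and the fetal testis from retinoic acid. It was 18.5, 23.6 and 31.2 TPM in Tmem216-/- samples and 31.0, 13.6 and 45.6 TPM in WT samples. Both the lowest and the highest of the 6 values were WT, and the WT high was 3.35 times the WT low. Means were 24.4 ± 6.41 TPM in Tmem216-/- samples and 30.1 ± 16.0 TPM in WT samples, with a log2 fold change of -0.17 (SE 0.42, 95% interval -1.18 to 0.85, limma adjusted p = 0.983). Cyp26b1 made up 82.7% to 91.7% of the summed Cyp26 level in Tmem216-/- samples and 87.4% to 93.8% in WT samples. Limb markers, 7 genes that include Hoxd13 and Pitx1, summed to 98.0, 88.5 and 133.3 TPM in Tmem216-/- samples and 193, 141 and 114 TPM in WT samples. None of the 7 was at 0, 6 had a negative log2 fold change, and 0 passed limma (0.104% of all tested genes), with a median log2 fold change of -0.91. The gene with a positive one was Tbx5, also on the eye list. Without it the limb sum was 85.3, 73.4 and 115.0 TPM in Tmem216-/- samples and 191, 129 and 106 TPM in WT samples. The groups did not overlap for 2 of the 7, Tbx5 higher and Pitx1 lower in every Tmem216-/- sample (9.57% of all tested genes). Pitx1 was 13.75, 5.87 and 12.7 TPM in Tmem216-/- samples and 62.45, 34.49 and 35.22 TPM in WT samples. The limb marker Prrx1 was 57.0 ± 4.84 TPM in Tmem216-/- samples and 59.1 ± 8.24 TPM in WT samples. The part of limb tissue in the Cyp26b1 level was not tested.

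Cyp26a1 had the largest positive log2 fold change of the tested retinoic acid genes, 0.51, within a wide WT spread. Cyp26a1 (ENSMUSG00000024987, chromosome 19, 37697798 to 37701536, plus strand) clears retinoic acid from the tail bud and early hindbrain. It was 3.42, 4.46 and 2.40 TPM in Tmem216-/- samples and 2.08, 0.79 and 4.14 TPM in WT samples. The groups overlapped because WT replicate 3 lay near the top of the Tmem216-/- range, and the WT high was 5.24 times the WT low. The SE was 0.40, the 95% interval -0.44 to 1.47 and the limma adjusted p 0.983. Without WT replicate 3 the log2 fold change was 0.89 and without WT replicate 2 it was 0.13, so single samples decide its size. Cyp26b1 exceeded Cyp26a1 by 5.41, 5.29 and 13.0 times in Tmem216-/- samples and by 14.9, 17.2 and 11.02 times in WT samples. Tmem216-/- replicates 1 and 2 held the lowest values of this ratio, and replicate 3 lay inside the WT range. Tail bud markers gave little to set beside it, since 7 genes summed to 7.90 to 11.8 TPM in Tmem216-/- samples and 11.6 to 13.2 TPM in WT samples. Of these Msgn1 was at 0 in all 6 samples and Cdx2 in all Tmem216-/- samples. Cdx2 was 1.08, 0.41 and 0.03 TPM in WT samples, the 1 gene of the 7 without overlap (9.57% of all tested genes). Of the 4 tested, 3 had a negative log2 fold change and Nkx1-2 a positive one of 0.74, with a median of -0.34. In limma 0 of the 4 passed (0.104% of all tested genes). The part of tail bud tissue in the Cyp26a1 level was not tested.

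Cyp26c1 fell below the filter and was not part of the test. Cyp26c1 (ENSMUSG00000062432, chromosome 19, 37685581 to 37693398, plus strand) ends 4400 bases before Cyp26a1 starts and is known from the hindbrain and the branchial region. It was 0.32, 0.47 and 0.42 TPM in Tmem216-/- samples and 0.85, 0.11 and 2.44 TPM in WT samples, so only WT replicate 3 was above 1 TPM. The WT samples differed among themselves by 22.2 times, and the Tmem216-/- values lay between them. A fit with no filter gave a log2 fold change of -0.45 (SE 0.40, adjusted p = 0.925), and -0.03 without WT replicate 3.

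**Figure D2:**
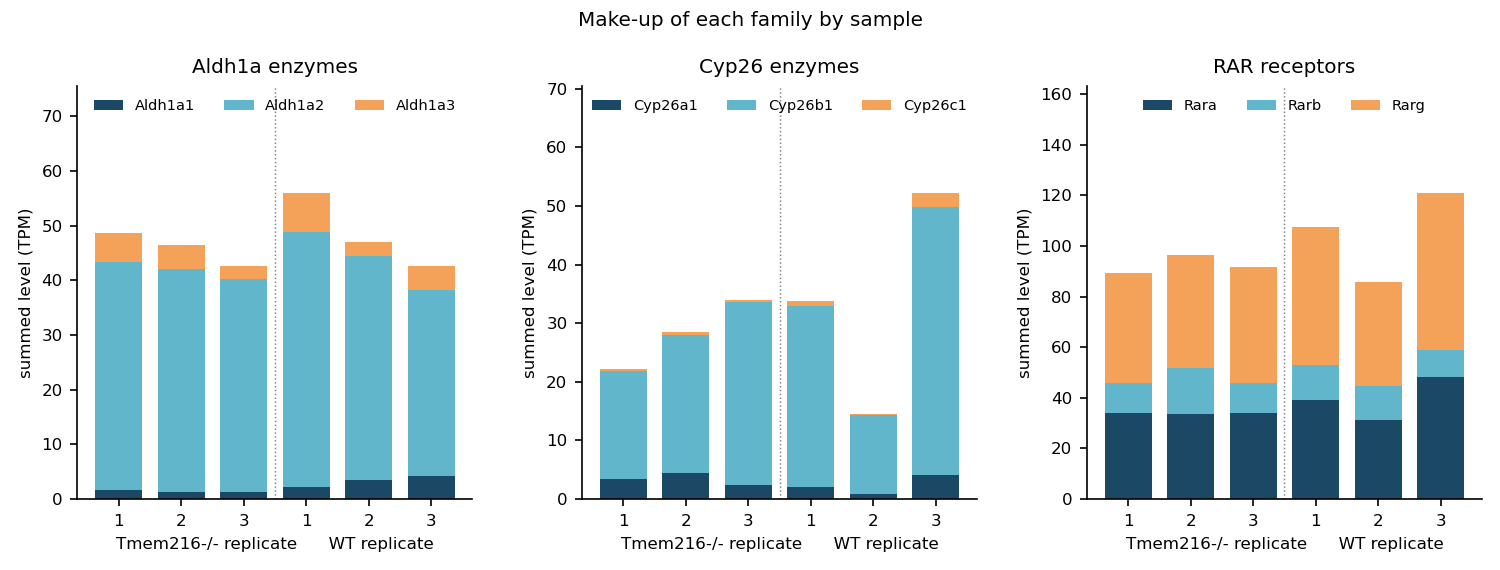
Summed level in TPM of the Aldh1a enzymes, the Cyp26 enzymes and the RAR receptors in each sample, Tmem216-/- replicates left of the dotted line and WT replicates right of it, with each gene in its own colour. Aldh1a2 and Cyp26b1 make up most of their families in all 6 samples, and the Cyp26 sum runs from 14.5 to 52.2 TPM among WT samples.

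Synthesis and breakdown enzymes were also set side by side within each sample. The Aldh1a sum was 2.19, 1.63 and 1.25 times the Cyp26 sum in Tmem216-/- samples and 1.65, 3.25 and 0.82 times it in WT samples. Tmem216-/- values of this ratio all lay inside the WT range. Cyp26 moved the ratio more than Aldh1a did, since the Aldh1a sum ran from 42.7 to 48.6 TPM in Tmem216-/- samples and from 42.6 to 56.0 TPM in WT samples. The Cyp26 sum ran from 22.2 to 34.0 TPM in Tmem216-/- samples and from 14.5 to 52.2 TPM in WT samples. An mRNA ratio does not give the rate of either reaction.

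The receptors Rarg and Rara were steady in Tmem216-/- samples and kept nearly the same proportion in each sample. Rarg (ENSMUSG00000001288, chromosome 15, 102234938 to 102257517, minus strand), the receptor of cartilage precursors and skin, was 43.8, 44.5 and 45.7 TPM in Tmem216-/- samples and 54.6, 41.1 and 62 TPM in WT samples. Rara (ENSMUSG00000037992, chromosome 11, 98927818 to 98974942, plus strand), the most widely expressed receptor, was 33.9, 33.6 and 34.2 TPM in Tmem216-/- samples and 39.1, 31.2 and 48.1 TPM in WT samples. For both genes all Tmem216-/- values lay within the WT range, below WT replicates 1 and 3 and above WT replicate 2. Rarg had a log2 fold change of -0.21 (SE 0.15, 95% interval -0.58 to 0.16) and Rara one of -0.19 (SE 0.16, 95% interval -0.57 to 0.18), each with a limma adjusted p of 0.983. The level of Rarg divided by that of Rara was 1.29, 1.32 and 1.34 in Tmem216-/- samples and 1.40, 1.32 and 1.29 in WT samples. This narrow ratio is a property of both genotypes, and its groups overlapped.

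Rarb was the least abundant receptor and the exception in pattern. Rarb (ENSMUSG00000017491, chromosome 14, 16430839 to 16819156, minus strand), whose promoter with the paired half-sites is printed above, was 11.9, 18.2 and 11.8 TPM in Tmem216-/- samples and 13.9, 13.5 and 10.9 TPM in WT samples. One sample, Tmem216-/- replicate 2, stood above the rest, and the others overlapped. Means were 13.9 ± 3.69 TPM in Tmem216-/- samples and 12.7 ± 1.65 TPM in WT samples, with a log2 fold change of 0.10 (SE 0.20, 95% interval -0.38 to 0.58, limma adjusted p = 0.983). The deposited value covers the whole gene, and the printed window belongs to a start inside it, so levels from separate starts cannot be told apart. Rarb was 12.8% to 18.9% of the summed receptor level in Tmem216-/- samples and 8.98% to 15.7% in WT samples. Rarg was 46.2% to 49.9% of that sum in Tmem216-/- samples and 48.0% to 51.3% in WT samples.

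Crabp1 was the most abundant of the retinoic acid genes, at roughly the same level in both genotypes. Crabp1 (ENSMUSG00000032291, chromosome 9, 54764748 to 54773110, plus strand) encodes a cytoplasmic carrier found in neural crest, hindbrain and early neurons. It was 427, 537 and 490 TPM in Tmem216-/- samples and 438, 371 and 537 TPM in WT samples. The groups overlapped over most of their range, with a log2 fold change of 0.12 (SE 0.15, 95% interval -0.25 to 0.49, limma adjusted p = 0.983). Its mean over all samples was above that of 98.3% of tested genes. Crabp2, the related carrier that hands retinoic acid to the receptors, was 304 ± 48.0 TPM in Tmem216-/- samples and 288 ± 50.9 TPM in WT samples. Crabp1 divided by Crabp2 was 1.66, 1.52 and 1.63 in Tmem216-/- samples and 1.45, 1.61 and 1.63 in WT samples. The neural crest markers, 6 genes with none at 0, summed to 65.5 to 72.5 TPM in Tmem216-/- samples and 66.6 to 98.6 TPM in WT samples. Of the 6, 0 were free of overlap between the groups, against 9.57% of all tested genes. By sign 5 of the 6 were lower and 1 higher in Tmem216-/- samples, with a median log2 fold change of -0.23. In limma 0 of the 6 passed (0.104% of all tested genes). The part of neural crest in the Crabp1 level was not tested.

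The order of the levels was similar in all 6 samples. Over all samples the means were 466.6 TPM for Crabp1, 48.6 for Rarg, 40.6 for Aldh1a2, 36.6 for Rara, 27.2 for Cyp26b1 and 13.3 for Rarb. Below them came Aldh1a3 at 4.32, Cyp26a1 at 2.88, Aldh1a1 at 2.33 and Cyp26c1 at 0.77 TPM. Crabp1 was first, Rarg second, Rarb in rank 6 and Cyp26c1 last in each of the 6 samples. Neighbours from Rarg to Rarb overlapped in range, as did those from Aldh1a3 to Cyp26c1, while Crabp1 stood clear of Rarg and Rarb clear of Aldh1a3. Between Aldh1a1 and Cyp26a1, Cyp26a1 was the higher in all 3 Tmem216-/- samples and Aldh1a1 in all 3 WT samples, in WT replicate 3 only by 4.17 to 4.14 TPM. This was noticed in the values and has no test of its own.

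WT samples spread more widely than Tmem216-/- samples. The SD in TPM was larger in WT for 9 of the 10 genes, Rarb being the exception, and for 73.1% of all tested genes. In 6 of the 10 the WT range enclosed all Tmem216-/- values, against 41.1% of all tested genes. WT replicate 3 held the highest WT value of 7 genes and WT replicate 2 the lowest of 7, against 45.6% and 40.5% of all tested genes. The neuron sums given above, made up mostly of Tubb3, have the same order, WT replicate 3 highest and WT replicate 2 lowest. Map2, 1 of the 5 neuron genes, was highest in WT replicate 1, at 134, 115 and 127 TPM in WT samples. It was 151 to 160 TPM in Tmem216-/- samples, the 1 gene of the 5 without overlap (9.57% of all tested genes). The part of the neuron difference between libraries in the spread of the retinoic acid genes was not tested.

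None of the other tested genes of the pathway passed the test. Of 29 listed genes, 26 passed the filter, 9 were higher and 17 lower, and 0 of the 26 had an adjusted p under 0.05 in limma, against 0.104% of all tested genes. Their median log2 fold change was -0.12, 1 had an unadjusted p under 0.05 (4.46% of all tested genes) and 4 had groups that did not overlap (9.57% of all tested genes). Rdh10, which makes most retinaldehyde of the embryo, was 8.16, 9.09 and 8.83 TPM in Tmem216-/- samples and 11.4, 11.1 and 10.03 TPM in WT samples. All its Tmem216-/- values lay below all WT values, with a log2 fold change of -0.29 (SE 0.12, adjusted p = 0.983). Dhrs3, which turns retinaldehyde back to retinol, was 13.6 ± 2.09 TPM in Tmem216-/- samples and 15.8 ± 1.14 TPM in WT samples, a log2 fold change of -0.21.

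Carriers and other enzymes gave a similar picture. Fabp5, a fatty acid carrier that can also bind retinoic acid, was 376 ± 28.7 TPM in Tmem216-/- samples and 418 ± 22.2 TPM in WT samples, with no overlap by a margin of 399.8 to 400.4 TPM and a log2 fold change of -0.15. Cyp1b1, a cytochrome that can oxidise retinol, was 6.09, 5.59 and 5.55 TPM in Tmem216-/- samples and 3.55, 5.11 and 3.34 TPM in WT samples. It was the gene of the list with an unadjusted p under 0.05, at a log2 fold change of 0.45 (SE 0.18, adjusted p = 0.983). Ttr, the plasma carrier of thyroid hormone and of the retinol-binding protein, was 61.7, 61.4 and 93.9 TPM in Tmem216-/- samples and 169, 73.0 and 140 TPM in WT samples. Ttr is made in liver and choroid plexus, is itself one of the 6 liver genes summed above, and made up most of that sum in Tmem216-/- replicates 2 and 3 and WT replicate 3. The RXR partners Rxra, Rxrb and Rxrg had log2 fold changes of -0.10, -0.12 and -0.12, and the 6 coregulators ran from -0.19 to 0.20.

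**Figure D3:**
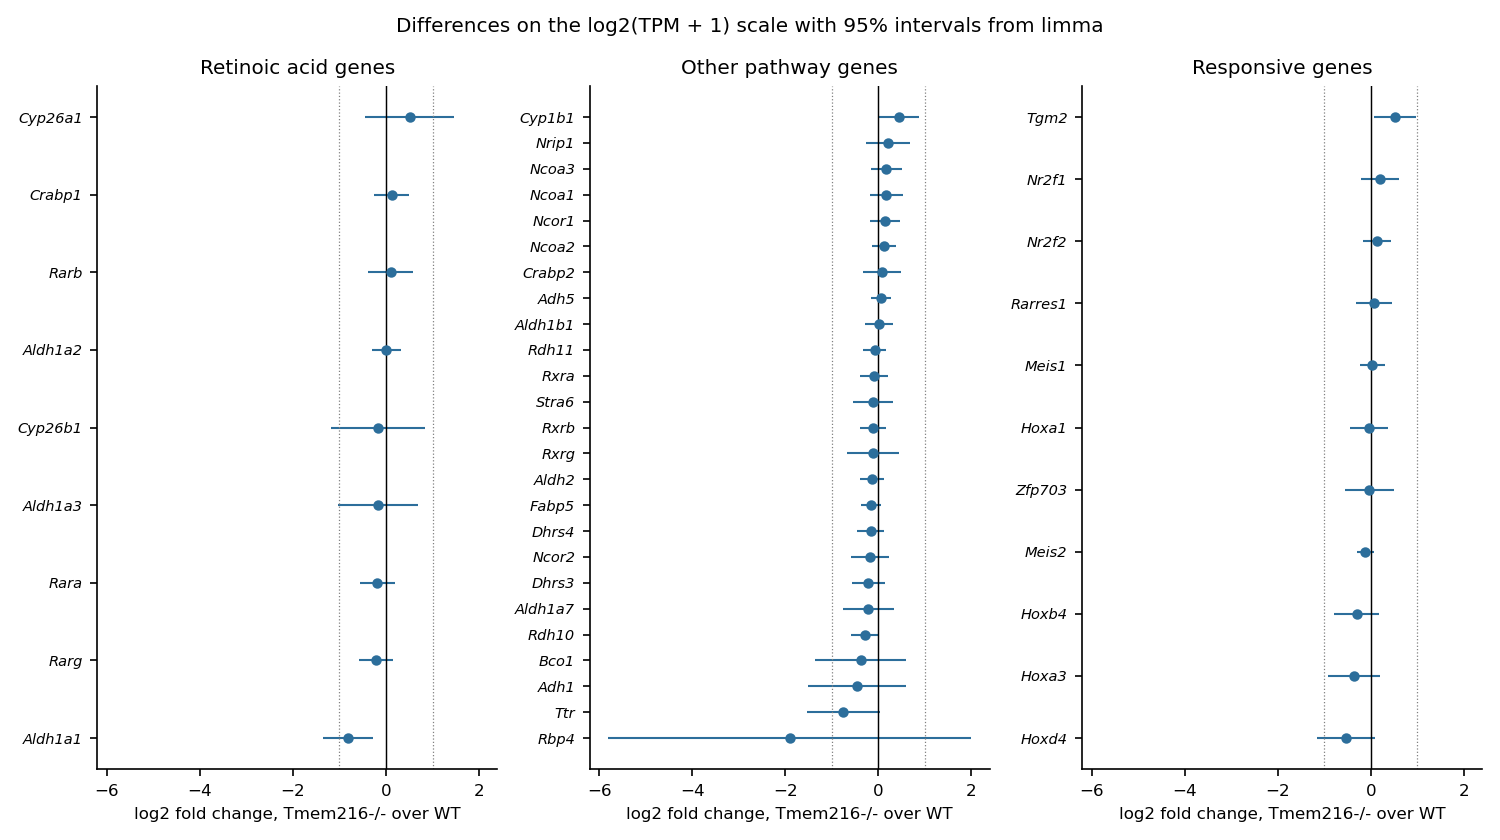
Log2 fold change on the log2(TPM + 1) scale, Tmem216-/- over WT, with 95% intervals from limma, for the 9 tested retinoic acid genes, 25 other pathway genes and 11 responsive genes. Dotted lines mark a 2-fold difference in either direction, and Aldh1a1 lies lowest of the retinoic acid genes at -0.82.

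None of the tested genes known to respond to retinoic acid passed the test. Of 16 listed, 12 passed the filter, 6 were higher and 6 lower, the median log2 fold change was 0.00, and 0 of the 12 passed limma after adjustment (0.104% of all tested genes). In 3 of the 12 the groups did not overlap, 2 higher and 1 lower (9.57% of all tested genes), and 1 had an unadjusted p under 0.05 (4.46%). That 1 was Tgm2, a transglutaminase gene induced by retinoic acid, at 15.5, 18.3 and 15.7 TPM in Tmem216-/- samples and 11.6, 14.1 and 8.50 TPM in WT samples. Its log2 fold change was 0.52 (SE 0.19, adjusted p = 0.983). Meis2, a Hox cofactor, was 108 ± 5.75 TPM in Tmem216-/- samples and 118 ± 1.26 TPM in WT samples. The Hox genes Hoxd4, Hoxa3 and Hoxb4, which are known to respond to the signal, had log2 fold changes of -0.54, -0.36 and -0.31, each with an adjusted p of 0.983 and with overlapping groups.

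For the 3 tested retinoic acid genes with the largest absolute log2 fold changes, the genes of most similar profile over the 6 samples were looked up. Likeness was the root mean square difference of log2(TPM + 1) after subtracting the mean of each gene, among genes with a mean of at least 5 TPM. Closest to Aldh1a1 were Nudt13 (0.15), Pax8 (0.19) and Hoxa6 (0.20), where Aldh1a1 itself deviates from its mean by 0.46. Closest to Cyp26a1, which deviates by 0.55, were Atp5g2 (0.19), Mrip-ps (0.20) and Eef1a2 (0.22). Closest to Rarg, which deviates by 0.20, were Mgat4b (0.03), Vps28 (0.04) and Rara (0.04). Out of 11075 genes compared, the receptor Rara was thus the third nearest to Rarg. These are descriptions over 6 samples that share their libraries.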

How the data were processed

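The authors sequenced total RNA of 6 embryo samples and deposited 1 table that gives each gene's TPM. The tools, per the submitters' processing notes, were CASAVA 1.8, HISAT2, StringTie and RSEM with build mm10; strand settings and filters are not given in the sources used here. Each deposited TPM column sums to 1000000, so depth is unknown and a count model could not be fitted. Further deposited columns, 2 in number, equal the group means in TPM to within 3.3e-06 and were not tested. The deposited gene length was not used in any test.

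The members and lists were chosen with earlier results of these data known. Genes that reached 1 TPM in 3 or more samples were kept (16411). Tmem216-/- was compared with WT by limma (lmFit, eBayes with a trend) on log2(TPM + 1), two-sided, with Benjamini-Hochberg adjustment over all tested genes and a threshold of 0.05. SE is the moderated standard error. Exact permutation tests took all splits into 3 and 3. Named beyond the members were Tmem216, up to 6 genes of each list with the smallest p, the 3 genes nearest in profile to each of 3 members, and a few others chosen after their values were seen. Some genes that this rule selects are left out of the text and plots. Coordinates are from GENCODE M21 (GRCm38). Versions were R 4.3.3, limma 3.58.1, Python 3.11.15, pandas 2.3.3, scipy 1.17.1 and matplotlib 3.10.9.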

Additional observations from a re-analysis of the deposited data

How the results depend on the processing

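No retinoic acid gene passed the test under any of the 17 alternatives, and the same held for both further lists. They changed the pseudocount (0.1 or 5), the filter (none, or 5 TPM, which left 6 of the 10 genes), the scaling (quantile, median of ratios, or leaving out 233 genes of haemoglobin, mitochondria and ribosomal RNA), the eBayes step (robust, or with no trend), the design (replicate block, or Y-linked expression as a covariate for sex) and the samples (leaving out each of the 6). For Aldh1a1 the log2 fold change stayed negative in all 16 it could be fitted in, between -1.01 and -0.67 with a sample left out, at adjusted p values from 0.412 to 1.00. Those of Rara (-0.35 to -0.04) and Rarg (-0.37 to -0.08) stayed negative too, nearest to 0 without WT replicate 3 and farthest without WT replicate 2. The sign turned with a sample left out for Aldh1a2 (-0.11 to 0.11), Aldh1a3 (-0.46 to 0.12), Cyp26b1 (-0.63 to 0.20), Rarb (-0.094 to 0.20) and Crabp1 (-0.0066 to 0.26), and for Mrip-ps (-0.030 to 0.51) and Eef1a2 (-0.16 to 0.47). The cause was not tested.

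Over all genes, 17 changed in the main setting, 0 with no filter (1207 at an unadjusted p under 0.05) and 0 to 27 with a sample left out. Without WT replicate 1, 2 or 3 the counts were 0, 2 and 1. In those fits and with no filter, the lack of a passing retinoic acid gene therefore says little. Tmem216 kept a log2 fold change from -3.81 to -3.25 with a sample left out but passed in only 1 of those 6 fits, and it missed the threshold at a pseudocount of 0.1, with no filter and with the covariate. Same-numbered samples did not deviate together (correlations of 0.02, -0.09 and 0.10), so the numbers were not taken as pairs. With the replicate block 25 genes changed.

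Depth is unknown, so the precision of the low values of Aldh1a1, Cyp26a1 and Cyp26c1 cannot be given. With 3 samples a group no exact permutation p can go below 0.1.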

Other observations

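The promoter repeat with 5 bases between half-sites that Rarb and Cyp26a1 share was found in the windows of 31 genes, and 10 of these were tested. Of the 10, 6 were higher and 4 lower in Tmem216-/- samples, with a median log2 fold change of 0.10 and a range from -0.56 to 0.51. In limma 0 of the 10 changed at an adjusted p under 0.05 (0.104% of all tested genes), 0 had an unadjusted p under 0.05 (4.46%) and 0 had groups that did not overlap (9.57%). Rarb and Cyp26a1 are among the 10, and the others include the embryonic globin gene Hbb-y and the biliverdin reductase gene Blvrb, both active in red blood cells and named after their values were seen. Blvrb was 73.1, 34.8 and 40.4 TPM in Tmem216-/- samples and 91.1, 97.9 and 37.6 TPM in WT samples, with a log2 fold change of -0.56. A match in the window does not show that the receptors act there.

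Rbp4, the plasma retinol carrier, was named after its values were seen. It was 74.9, 3.27 and 3.20 TPM in Tmem216-/- samples and 106, 144 and 3.60 TPM in WT samples, with a log2 fold change of -1.91 (SE 1.64, adjusted p = 0.983 in limma). The 3 samples with low Rbp4, Tmem216-/- replicates 2 and 3 and WT replicate 3, also had the lowest Afp, a liver secretory gene, at 0.47, 3.07 and 11.3 TPM, against 480 TPM in Tmem216-/- replicate 1 and 669 and 1228 TPM in WT replicates 1 and 2. Both genotypes held samples of either kind.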
